A study of Mus musculus with 2 samples.

Results

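Astrocytes of the newborn mouse telencephalon that already carried transcripts of Aqp4, Aldh1l1 or Pla2g7 were followed in 2 single-cell libraries, of which one was labelled WT and one came from conditional knockout (cKO) pups with the genotype STINGf/f;Nestin-Cre. Cells were chosen by the unique molecular identifiers (UMIs, 1 per captured transcript molecule) of 16 genes. A member had at least 500 detected genes, at most 10% of its UMIs in mitochondrial genes, at least 3 UMIs of Slc1a3, at least 3 of Aqp4, Aldh1l1 and Pla2g7 together, and none of Pdgfra. It also had fewer than 2 UMIs of Foxj1, Ccdc153 and Tmem212, fewer than 3 of Mki67, Top2a and Cenpf, fewer than 5 of Cldn5, Flt1 and Pecam1, and at most 1 of Neurod2 and Neurod6. The rule found 519 members among 6766 WT cells that passed the filter on genes and mitochondrial UMIs, and 322 among 6080 cKO cells, 841 in all of 12846 such cells and of 19913 barcodes in the files. Tissue came from C57BL/6 pups at postnatal day 0 in both groups, and was dissociated with papain before capture on the 10x Chromium. The study asked how loss of STING, encoded by Tmem173, in the neural lineage changes the forebrain. Nestin-Cre drives recombination in neural progenitors and so in the neurons and glia derived from them, but not in microglia. The control is labelled WT, and the study calls it STINGfl/fl, which is the floxed genotype without Cre, as well as wild type. The number of pups per library is not given in the sources used here. With 1 library per group, no difference between WT and cKO has a replicate check: no p-value is given, and every interval below is a 95% interval for counting error alone.

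Cortical astrocytes arise from radial glia around birth, after the main wave of neurogenesis, and go on dividing and maturing for weeks. Slc1a3 (GLAST) and Slc1a2 (GLT-1) take up synaptic glutamate, Aqp4 is the water channel of astrocyte endfeet, Aldh1l1 is a folate enzyme used as an astrocyte marker, Pla2g7 is a secreted phospholipase and Slc4a4 is a sodium bicarbonate cotransporter. STING is the endoplasmic reticulum adaptor through which the DNA sensor cGAS activates TBK1, IRF3 and NF-kB.

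The WT and cKO libraries held 69554624 and 67448785 UMIs over 10715 and 9198 barcodes, and shared 19 barcode sequences, 1 of them that of a member. Members had a median of 6764 UMIs in WT (lowest 1261, highest 35755) and 8748 in cKO (944 and 38724), so that cKO members were the deeper ones. Their mitochondrial share was alike, with medians of 3.88% and 3.99%. Summed over members, each library gave 3819924 and 2997570 UMIs, and a level below is the count of a gene divided by this total and scaled to CPM (counts per 1000000 UMIs). The libraries also differed in sex: Xist was at 0.524 CPM in WT and 957 in cKO, and the Y-linked gene Ddx3y at 64.9 CPM in WT and 0 in cKO, so genotype, sex and library cannot be told apart. Tmem173 itself had 5 UMIs in WT members and 0 in cKO members, where 0 allows up to 1.23 CPM, so that its loss was not detectable in these cells at this depth. In all other filtered cells it was at 2.33 CPM in WT and 0.334 in cKO, a log2 ratio of -2.80 (-3.60 to -2.08). The makeup of that sum differed too, with the endothelial markers at 486 CPM in WT and 168 in cKO and the microglial markers at 213 CPM in WT and 141 in cKO, and their part in the lower Tmem173 was not tested. Which exons the floxed allele removes is not stated in the labels, and reads of this assay come from transcript ends.

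The label held for astroglial identity. Slc4a4, which the rule did not use, was at 420.4 CPM in WT (400.1 to 442) and 311 in cKO (291 to 332) in members, and at 8.04 and 7.13 CPM in cells with at least 3 UMIs of Neurod2, Neurod6, Gad1 and Gad2 and none of Slc1a3, called neurons here. Sox9, the transcription factor of the glial lineage, was at 572 CPM in WT (548 to 596) and 603 in cKO (576 to 632). Gfap, an intermediate filament gene, was at 252 CPM in WT (237 to 269) and 189 in cKO (174 to 206), and 0.376 and 0.413 CPM in neurons. At equal depth, with every cell thinned to 4000 UMIs, a UMI of Slc4a4 was found in 65.6% (61.2 to 69.9) of 486 WT members and 61.7% (56 to 67.1) of 313 cKO members, against 0% of 54 WT and 3.33% of 30 cKO microglia. Microglia (at least 10 UMIs of Cx3cr1, C1qa, C1qb, C1qc, P2ry12 and Csf1r) should lack the gene. Their share is thus a background for free RNA of this gene alone, and it rests on few cells. Shallower cells were left out of this count, which were 33 WT and 9 cKO members and 2 WT and 1 cKO microglia. Unthinned, the shares of members were 77.3% and 80.1%.

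Some genes of the astrocyte lists had few UMIs in members, and the following were chosen after their values were seen. Gjb6, the connexin 30 gene, had 4 UMIs in WT members and 14 in cKO members, S100b had 35 and 8, Grin2c had 8 and 11, and the urea transporter Slc14a1 had 12 and 6. Genes of radial glia were still present: Fabp7 was at 20218 CPM in WT and 13414 in cKO, Vim at 1552 CPM in WT and 2173 in cKO, and Nes at 176 CPM in WT and 200.2 in cKO. Members thus held both transporter genes of astrocytes and the filament and fatty acid binding genes of radial glia.

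**Figure D1:**
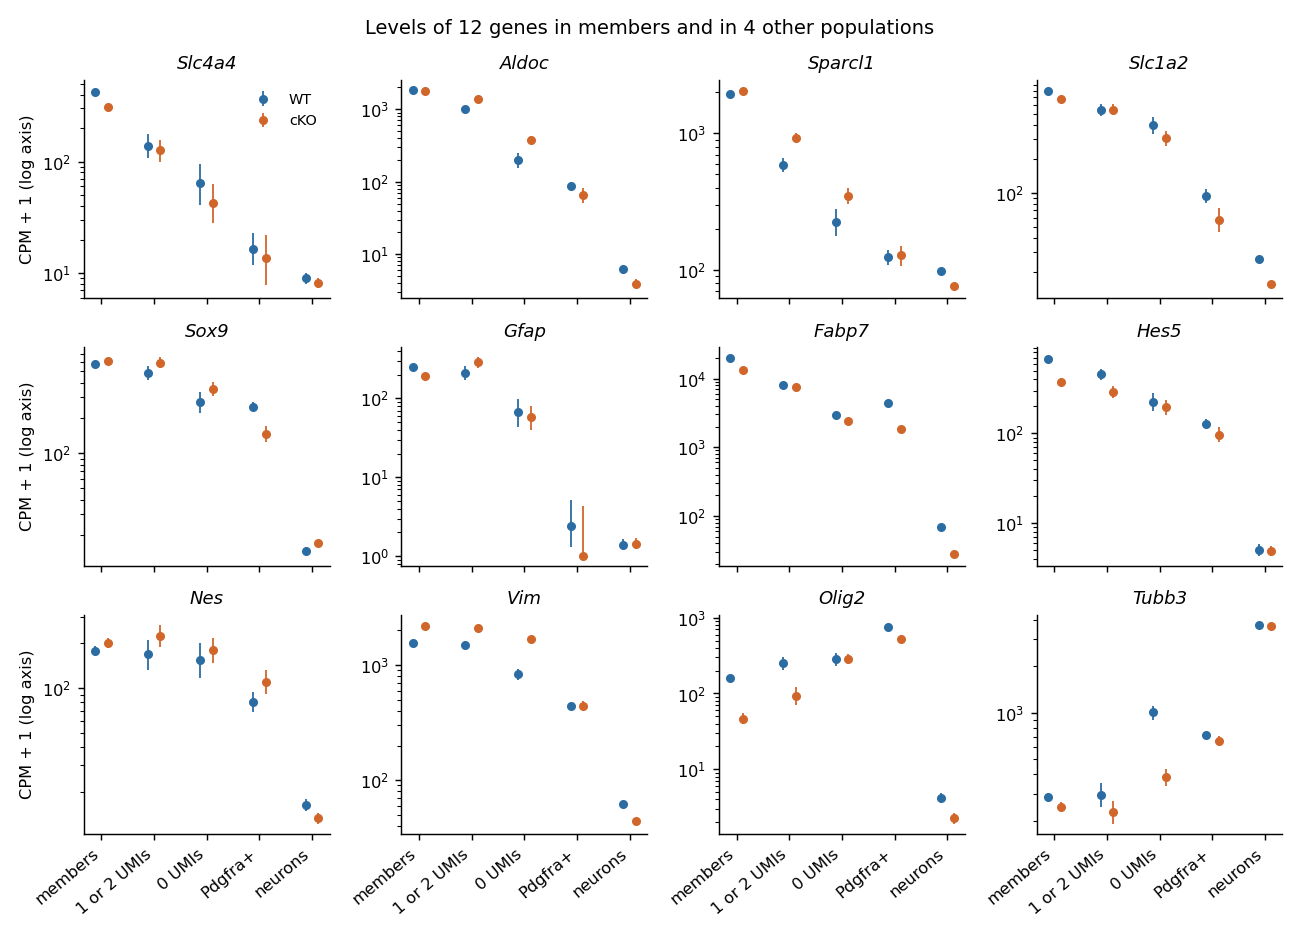
Levels of 12 genes (CPM + 1 of summed UMIs, log axis; bars are exact 95% Poisson intervals) in members, in Slc1a3+ cells with 1 or 2 UMIs or 0 UMIs of Aqp4, Aldh1l1 and Pla2g7, in cells with at least 3 UMIs of Pdgfra and in neurons, for WT (blue) and cKO (orange). Slc4a4, Aldoc, Sparcl1 and Fabp7 are highest in members and lowest in neurons in both libraries, and Olig2 in members is 162 CPM in WT and 45.7 in cKO.

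Markers of other cell types were present in members to different degrees. The 8 microglial markers summed to 3.14 CPM in WT and 1.67 in cKO, with 3 and 6 of them at 0, and the 5 endothelial markers, 3 of them used by the rule, to 7.07 CPM in WT and 2.34 in cKO. The 4 choroid plexus markers summed to 3.66 CPM in WT and 2.00 in cKO, the 4 ependymal markers, 3 of them used by the rule, to 27 CPM in WT and 23 in cKO, the 5 fibroblast markers to 26.4 CPM in WT and 19 in cKO and the 4 mural markers to 91.6 CPM in WT and 79.7 in cKO, of which Pdgfrb gave 68.6 and 53. The 11 neuronal markers, Neurod2 and Neurod6 included, summed to 823 CPM in WT and 710.2 in cKO, and 56 WT and 31 cKO microglia summed to 557 and 832 CPM. The 7 markers of oligodendrocyte precursors, Pdgfra included, summed to 566 CPM in WT and 214 in cKO, nearly all of it from Olig1 and Olig2, which are described with the lineage factors. In all other filtered cells these 7 markers summed to 349.7 CPM in WT and 148 in cKO, less than in members. The fibroblast markers there summed to 21.6 CPM in WT and 8.78 in cKO, the mural markers to 171 CPM in WT and 57.8 in cKO, the ependymal markers to 57.9 CPM in WT and 16.6 in cKO and the choroid plexus markers to 61.3 CPM in WT and 0.965 in cKO, so that in cKO these 4 sums were also below those of members. Sox10, an oligodendrocyte lineage factor, had 2 and 0 UMIs. Haemoglobin UMIs came to 1010 in WT, 959 of them in 1 cell, and to 14 in cKO. All 64 UMIs of the granulocyte genes S100a8 and S100a9 in cKO members were in 1 cell. The part of carried-over RNA in the values below was not tested.

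Members were 7.67% of filtered cells in WT (7.05 to 8.33, exact Clopper-Pearson) and 5.30% in cKO (4.75 to 5.89), a difference of -2.37 percentage points (-3.22 to -1.52, Newcombe's interval). The share depended on the filter: it was 24.3% and 16.8% of cells with at least 1000 genes and at most 5% mitochondrial UMIs, a difference of -7.43 points in the share of kept cells. With no filter it was 5.02% and 3.63% of barcodes, a difference of -1.39 points, and cKO was the lower library under every setting tried. Among the cells that passed every other condition, members made up 79% of 657 in WT and 66.4% of 485 in cKO, although cKO cells were deeper. The remaining Slc1a3+ cells held 1 or 2 UMIs of the Aqp4, Aldh1l1 and Pla2g7 sum in 77 WT and 80 cKO cells, and none in 61 and 83. Just inside the threshold, 42 WT and 34 cKO members had a sum of 3, and just outside it 26 and 40 cells had a sum of 2. The Slc1a3 threshold excluded few, with 7 and 11 cells that failed it alone, while 81 and 37 failed only the limit on the proliferation genes and 50 and 34 only that on Neurod2 and Neurod6. Cells with more UMIs of the proliferation genes are thus not described here. Other populations differed in number too. Cells with at least 3 UMIs of Pdgfra were 282 of the WT and 126 of the cKO filtered cells. Those with at least 3 UMIs of Foxj1, Ccdc153 and Tmem212 were 51 and 17, and microglia 56 and 31. Neurons were 3189 in WT and 3655 in cKO. The lower share in cKO was thus not particular to members. The difference in share of cells comes from 1 dissociation per group, and dissection, capture and genotype cannot be told apart.

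The 3 genes that admitted members did so unevenly, and these values describe the rule's own measure. Aldh1l1 had a UMI in 93.3% of WT and 90.4% of cKO members, Pla2g7 in 87.5% and 81.7%, and Aqp4 in 64.9% and 45.3%. UMIs of all 3 genes were found in 286 of 519 WT and 114 of 322 cKO members, and of only 1 of them in 49 and 58. The median sum was 10 UMIs in WT and 7 in cKO, with the highest at 66 and 45. Aqp4 was at 273 CPM in WT and 94.4 in cKO, Aldh1l1 at 647 CPM in WT and 432 in cKO, Pla2g7 at 699.8 CPM in WT and 503 in cKO and Slc1a3 at 2721 CPM in WT and 2462 in cKO. All 4 were lower in cKO, Aqp4 by the most.

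Members varied along the expression of these genes. After thinning to 4000 UMIs, 28 WT and 50 cKO members kept 0 to 1 UMI of the Aqp4, Aldh1l1 and Pla2g7 sum, 108 and 103 kept 2 to 3, and 350 and 160 kept 4 or more. Genes the rule did not use moved along these steps in both libraries, though within a library all steps share 1 capture and the levels sum to a fixed total. From the lowest step to the highest, Slc4a4 was at 161, 238 and 504 CPM in WT and 170, 235 and 409 in cKO. Sparcl1, a secreted matrix protein, was at 723, 1250 and 2441 in WT and 1190, 1643 and 2841 in cKO, and the lipid carrier Apoe at 2036, 2942 and 4786 in WT and 2365, 3172 and 4119 in cKO. The peptide hormone precursor angiotensinogen (Agt) had no UMI in the lowest step of either library, then 4.63 and 45 CPM in WT and 9.71 and 35.9 in cKO. Its middle step held 2 UMIs in WT and 4 in cKO, and the empty lowest step allows up to 32.9 and 18.4 CPM. The lowest and middle steps of Agt thus cannot be told apart. The interval of the highest step lies above both in WT (34.6 to 57.6). In cKO it (22.8 to 53.9) lies above that of the lowest step but overlaps that of the middle one (2.65 to 24.9). Levels of the glutamate transporter Slc1a2 were 571, 729 and 867 in WT and 515, 663 and 709 in cKO, and those of the connexin 43 gene Gja1 98.2, 139 and 203 in WT and 30, 82.5 and 114 in cKO. In each library these genes were highest where the gate genes were highest.

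Other genes did not follow them. Vim was at 1669.6, 1648 and 1470 CPM in WT and 2190, 2534 and 1861 in cKO, and Gfap at 295, 264 and 256 in WT and 220, 209 and 170.3 in cKO. Hopx, a homeodomain gene of outer radial glia, was at 446, 394 and 346 in WT and 390, 379 and 202 in cKO, highest in the lowest step. The lineage factor Olig2 had 339, 171 and 150 in WT and 65, 58.3 and 42.2 in cKO. Igfbpl1, a gene of newborn neurons and their progenitors, was at 89.3, 167 and 20 in WT and 50, 29.1 and 15.6 in cKO. Olig2 was thus lowest in the members with most Aqp4, Aldh1l1 and Pla2g7. The cKO library was below WT in Olig2 at each of the 3 steps. Among the lists, the 20 secreted synapse and matrix genes summed to 12812, 15759 and 22278 CPM in WT and 15845, 16959 and 21059 in cKO, and the 20 pallial and subpallial factors to 2536, 2363 and 1757 in WT and 2465, 2134 and 1841 in cKO.

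**Figure D2:**
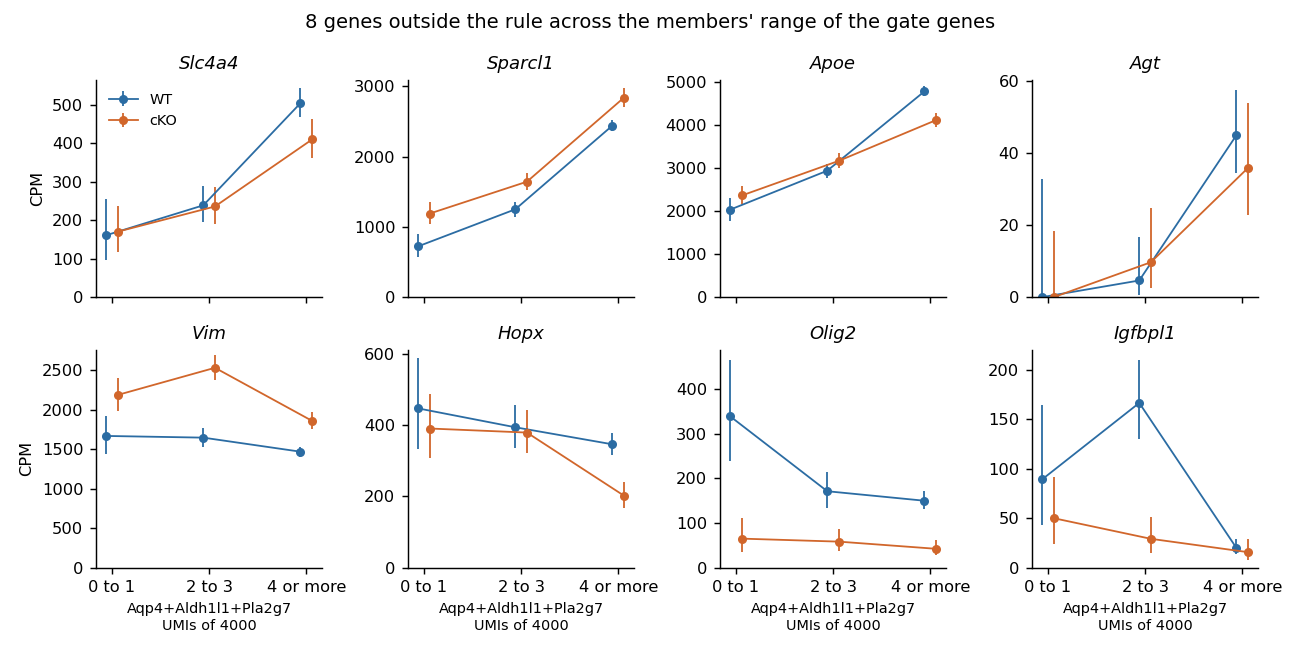
CPM of 8 genes outside the rule (bars are exact 95% Poisson intervals) in members thinned to 4000 UMIs and divided by their remaining UMIs of Aqp4, Aldh1l1 and Pla2g7, in WT (blue; 28, 108 and 350 cells) and cKO (orange; 50, 103 and 160 cells). Slc4a4, Sparcl1 and Apoe increase along the steps in both libraries, while Vim, Hopx and Olig2 are lowest in the last step. Agt is highest in the last step, and its earlier steps hold too few UMIs to be told apart.

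Members were next set beside the Slc1a3+ cells that met all other conditions but had no UMI of Aqp4, Aldh1l1 or Pla2g7 (61 WT and 83 cKO cells). Since the rule itself divides these groups, the values are a description. The second group was also shallower, with medians of 5664 and 7241 UMIs, and the part of depth in their lack of these UMIs was not tested. Of 8737 genes with at least 30 UMIs over both groups in each library, 279 (3.19%) were at least 2-fold higher in members in both libraries and 120 (1.37%) at least 2-fold lower, on the scale of CPM + 10. Against the cells with 1 or 2 UMIs instead, only 17 were higher and 12 lower.

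In the other cells of that comparison, called marker-negative below, known astrocyte genes were low. Slc4a4 led, with log2 ratios of 2.74 in WT (2.15 to 3.40) and 2.90 in cKO (2.33 to 3.54). Aldoc, the brain aldolase, stood at 3.20 in WT and 2.23 in cKO, Sparcl1 at 3.14 in WT and 2.55 in cKO and Fabp7 at 2.78 in WT and 2.46 in cKO. Lipid genes among them were Apoe (2.02 in WT and 2.12 in cKO) and the acyl-CoA synthetase Acsbg1 (2.73 in WT and 2.64 in cKO). Plat, tissue plasminogen activator, was at 175 CPM in WT and 159 in cKO in members and 11 CPM in WT and 29.98 in cKO in the marker-negative cells. Abhd3, a phospholipase, was at 39 CPM in WT and 56 in cKO against 2.74 CPM in WT and 3.33 in cKO. At equal depth a UMI of Plat was found in 43.8% of WT and 39.6% of cKO members, 4.55% and 11.9% of marker-negative cells and no microglia. The other 7 of the 15 were Luzp2, the carbonic anhydrase relative Car8, the carboxypeptidase inhibitor Lxn, the glutathione transferase Gstm1, Phyhipl, the scaffold Slc9a3r1 and Emp2, with log2 ratios from 2.06 to 3.25 over both libraries. Gstm1 shares a near-identical transcript with a pseudogene.

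Genes of neuronal differentiation were among those lowest in members. Insm1, a zinc finger factor of neurogenic progenitors, was at 17.5 CPM in WT and 16.7 in cKO in members and 241 CPM in WT and 205 in cKO in marker-negative cells. Igfbpl1 was at 68.1 CPM in WT and 31.4 in cKO against 691 CPM in WT and 333 in cKO, and the proto-oncogene Mycn at 28.3 CPM in WT and 26.4 in cKO against 181 CPM in WT and 185 in cKO. The other 7, Tesc, the Notch-modifying glycosyltransferase Mfng, Ier5, Trp53i11, the G protein regulator Rgs16, Mfap4 and the actin-binding Coro1c, which has a near-identical copy, had log2 ratios from -5.56 to -2.25. The 9 neuronal markers that the rule did not use were all lower in members in both libraries, with median log2 ratios of -1.79 in WT and -0.67 in cKO on the scale of CPM + 10. Leaving out Slc1a3, a gene of the rule, 15 of 17 radial glia genes were higher in members in both libraries. Of all 8737 genes, 34.6% were higher in members in both libraries and 36.5% lower in both. The marker-negative cells thus carried less of the radial glia set and more of the neuronal set than members did. Their own 11 neuronal markers summed to 2828 CPM in WT and 1089 in cKO, so the marker-negative cells of the libraries were not alike in this respect. Its part in the cKO over WT ratios of these cells given below was not tested.

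Most measured genes of several lists were higher in members than in marker-negative cells in both libraries. Listed genes were counted if members had at least 20 UMIs of them over both libraries, which drops genes low in members. It kept 16 of 20 secreted synapse and matrix genes and 13 of 22 STING, NF-kB and interferon genes. The 34.6% of all genes came from genes with at least 30 UMIs over both groups in each library, so it rests on an unlike filter. All 13 measured genes of glutamate and amino acid handling were higher in both libraries, with medians of 1.40 and 1.13. So were 30 of 33 astrocyte-enriched genes, 15 of 15 genes of cholesterol synthesis and uptake, 17 of 19 genes of lipid carriage and fatty acids and 15 of 16 secreted synapse and matrix genes. Of the other astrocyte lists, 9 of 12 ion, water and gap junction genes and 8 of 9 engulfment genes were higher. Lists not made for astrocytes varied, with 15 of 18 clock genes and 16 of 20 genes of glucose, glycogen and lactate higher. Fewer were higher for hedgehog and Wnt (8 of 15), STING, NF-kB and interferon (7 of 13) and immediate early genes (7 of 15). Of 11 Polycomb repressive complex 2 genes, 3 were higher and 4 lower. Over all 8737 genes the median was -0.02 in cKO and nearer to 0 in WT. Of 18 pallial and subpallial factors, 15 were lower in members in both libraries, among them the ventral factor Dlx2 (-3.07 in WT and -0.10 in cKO) and Olig2 (-0.81 in WT and -2.65 in cKO).

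Between WT and cKO members, most genes were alike in level. Of 11355 genes with at least 20 UMIs over both libraries, 74 (0.652%) were at least 2-fold higher in cKO and 249 (2.19%) at least 2-fold lower, on the scale of CPM + 10, and the median log2 ratio was -0.06. These percentages are the background against which the lists below are read. With TMM scaling factors in place of library totals the counts were 107 and 193, which moves the higher genes from 22.9% to 35.7% of those past 2-fold. Many of these differences were not limited to astrocytes. Of the 249 lower genes, 121 (48.6%) were also at least 2-fold lower in all other filtered cells as 1 sum, and of the 11355 genes 273 were lower there in all. Of the 74 higher genes, 18 (24.3%) were also at least 2-fold higher there, where 26 were in all. The other cells are of many types in proportions that differ between the libraries, and their ratio is given below beside that of members.

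**Figure D3:**
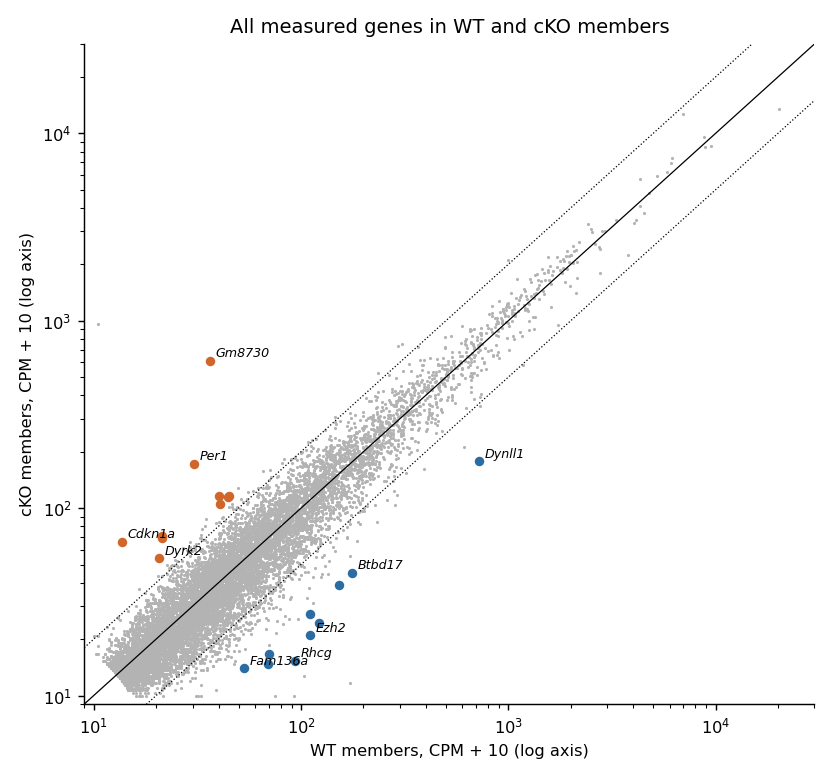
CPM + 10 of 11355 genes in WT members (x axis) and cKO members (y axis), both on log axes, with the line of equality and dotted lines at 2-fold. The 10 highest (orange) and 10 lowest (blue) genes by the naming rule are marked, some by name. The grey point at the far left above them is Xist, and more genes lie below the lower dotted line (249) than above the upper one (74).

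Per1, a light- and hormone-induced repressor of the circadian clock, was at 20.4 CPM in WT (16.1 to 25.5) and 162 in cKO (148 to 178), with a cKO over WT log2 ratio of 2.99 (2.64 to 3.36), beside 1.76 (1.63 to 1.90) in all other cells. In Slc1a3+ cells with 1 or 2 UMIs of Aqp4, Aldh1l1 and Pla2g7 the Per1 ratio was 3.44 (2.41 to 4.68). It was 4.30 (2.39 to 7.38) in the marker-negative cells and 2.89 (2.24 to 3.58) in cells with at least 3 UMIs of Pdgfra. The higher Per1 was thus not particular to members. Cdkn1a, which encodes the cyclin-dependent kinase inhibitor p21, was at 3.66 CPM in WT (2.00 to 6.15) and 56 in cKO (47.9 to 65.2), a ratio of 3.93 (3.15 to 4.84). In all other cells Cdkn1a was at 31.5 CPM in both libraries, with a log2 ratio between -0.10 and 0.10. At equal depth a UMI of Cdkn1a was found in 1.65% (0.713 to 3.22) of WT and 16.6% (12.7 to 21.2) of cKO members, and in 2.27% (0.0575 to 12) and 16.4% (8.49 to 27.5) of marker-negative Slc1a3+ cells. Microglia had 9.26% (3.08 to 20.3) and 6.67% (0.818 to 22.1), intervals that cover the shares of members in cKO and overlap those in WT. Whether microglia lack this gene is not known here. In the marker-negative cells the intervals of the 2 libraries overlapped. By summed UMIs Cdkn1a was also higher in cKO in the cells nearest to members, with ratios of 3.19 (1.53 to 5.54) in the Slc1a3+ cells with 1 or 2 UMIs of Aqp4, Aldh1l1 and Pla2g7, the gate genes, and 2.45 (0.75 to 4.82) in the marker-negative cells.

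Mical2, an actin-oxidising enzyme, was at 11.3 CPM in WT and 59.4 in cKO, a log2 ratio of 2.40 (1.91 to 2.92) against 0.28 (0.17 to 0.39) in other cells. Nedd9, a docking protein of focal adhesions, was at 34.3 CPM in WT and 104 in cKO, a log2 ratio of 1.60 (1.30 to 1.91) beside 0.37 (0.21 to 0.54) in other cells. Ralgds, an exchange factor for Ral GTPases, was at 30.6 CPM in WT and 95.7 in cKO, a log2 ratio of 1.64 (1.33 to 1.97) beside 0.43 (0.35 to 0.50) in other cells. In the Slc1a3+ cells with 1 or 2 UMIs of the gate genes the ratio was 3.11 (1.45 to 5.46) for Mical2, 1.71 (0.79 to 2.75) for Nedd9 and 0.67 (-0.29 to 1.70) for Ralgds, and in the marker-negative cells it was 2.19 (0.08 to 5.36), 2.74 (0.72 to 5.87) and 0.57 (-0.20 to 1.40). For these 3 genes the interval in members lay above that in all other cells as 1 sum, but overlapped those in the cells nearest to members. The next 3 were as far apart in other cells: the arrestin-domain gene Arrdc4 at 11.3 CPM in WT and 61.4 in cKO (2.45 in members and 2.65 elsewhere), the kinase Dyrk2 (2.04 and 2.20) and Gm8730 (4.50 and 4.62). Gm8730 is a processed copy of Rplp0, 98.7% identical to it over 954 bases, so its counts and those of Rplp0, at 1565 CPM in WT and 1634 in cKO, cannot be told apart with certainty. Crebrf, a regulator of the CREB3 factors, was at 30.4 CPM in WT and 106 in cKO (1.81, against 1.32), and the Myc family gene Mycl at 35.1 CPM in WT and 106 in cKO (1.60, against 0.87).

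The 10 lowest genes in cKO members were all lower in cKO in the other cells too. Ezh2, the histone H3 lysine methyltransferase of Polycomb, was at 100.8 CPM in WT (91 to 111) and 11 in cKO (7.58 to 15.5), and its log2 ratio was -3.19 (-3.75 to -2.68), beside -2.69 (-2.78 to -2.60) in all other cells. Of the other 10 Polycomb repressive complex 2 genes, none was past 2-fold, Suz12 being at 53.1 CPM in WT and 80.4 in cKO and Eed at 22.3 CPM in WT and 30.4 in cKO. Dynll1, a light chain of dynein, was at 715 CPM in WT and 168 in cKO (-2.09, against -2.08). The nuclear genes Mrpl14, Coa3 and Fam136a, which encode mitochondrial proteins, had ratios of -2.54, -2.30 and -3.43 in members and -3.01, -2.26 and -3.64 elsewhere. Fam136a also has near-identical copies. Of genes of the glial lineage, the receptor Gpr37l1 was at 60.5 CPM in WT and 6.67 in cKO, a log2 ratio of -3.18 (-3.92 to -2.52) beside -2.81 (-3.18 to -2.45) in other cells. Btbd17 was at 166 CPM in WT and 35 in cKO, a log2 ratio of -2.25 (-2.56 to -1.95) beside -2.71 (-2.98 to -2.46) in other cells. Fam212b was at 59.2 CPM in WT and 4.67 in cKO, a log2 ratio of -3.66 (-4.56 to -2.89) beside -2.74 (-3.15 to -2.34) in other cells. The ammonium transporter gene Rhcg was at 83.5 CPM in WT and 5.34 in cKO, with ratios of -3.97 (-4.79 to -3.25) and -2.41 (-3.10 to -1.77). The ratio of Rhcg was -4.52 (-9.90 to -1.84) in the Slc1a3+ cells with 1 or 2 UMIs and -3.89 (-9.34 to -1.04) in the marker-negative cells. Each of these populations had 1 UMI of Rhcg in cKO. Thrsp, a regulator of lipogenesis, stood at 112 CPM in WT and 14.3 in cKO in members, 162 CPM in WT and 98.3 in cKO in marker-negative cells, and its ratio of -2.96 (-3.45 to -2.51) lay below the -1.59 (-1.80 to -1.39) of other cells, while in the Slc1a3+ cells with 1 or 2 UMIs it was -2.24 (-2.80 to -1.72).

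**Figure D4:**
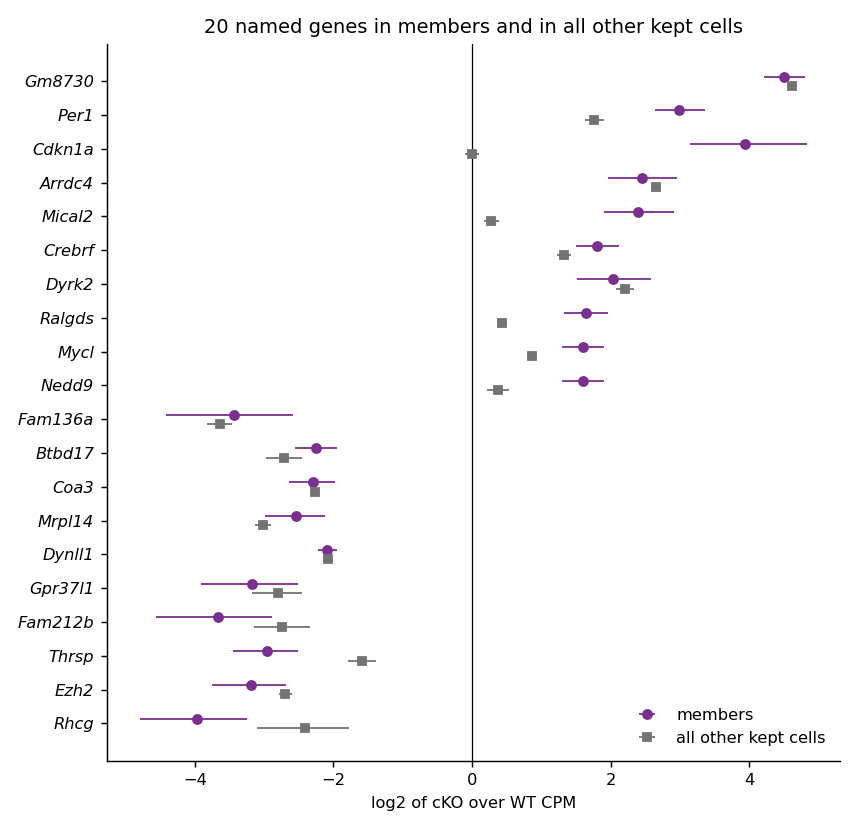
Log2 of cKO over WT CPM (x axis) of the 10 highest and 10 lowest genes, in members (purple circles) and in all other filtered cells (grey squares); bars are exact conditional binomial 95% intervals. Cdkn1a, Mical2, Per1, Ralgds and Nedd9 among the higher genes, and Rhcg and Thrsp among the lower, lie far from the grey square. Gm8730, Arrdc4, Dyrk2, Coa3 and Dynll1 lie beside it. The Slc1a3+ cells with 1 or 2 UMIs of the gate genes are not drawn. They differed in the same direction as members in the genes lying far, though the interval of Ralgds covered both signs.

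Of the lists of transporter and channel genes, that of ion, water and gap junction genes held genes past 2-fold. None of 13 genes of glutamate and amino acid handling was past 2-fold, the median log2 ratio was 0.10, just below 0 under 1 setting, and the range -0.48 to 0.61. Slc1a2 was at 786 CPM in WT (759 to 815) and 676 in cKO (646 to 706). Glul, glutamine synthetase, was at 1090.1 CPM in WT (1057 to 1124) and 1664 in cKO (1618 to 1711), the highest ratio of the list. The serine transporter Slc7a10 was the lowest, at 128 CPM in WT and 89.1 in cKO. In the ion, water and gap junction list, 3 of 12 measured genes (25%, against 2.19% of all genes) were past 2-fold lower. In the same list 1 gene (8.33%, against 0.652% of all genes) was past 2-fold higher. Gja1 was at 179 CPM in WT (166 to 193) and 74.7 in cKO (65.3 to 85.2), a ratio of -1.26 (-1.48 to -1.04), beside -2.33 (-2.56 to -2.10) in other cells and -2.11 (-2.91 to -1.37) in the Slc1a3+ cells with 1 or 2 UMIs of the gate genes, and a UMI of it was found in 42.8% (38.4 to 47.3) of WT and 24% (19.3 to 29.1) of cKO members at equal depth. The potassium channel subunit Kcnj16 had 44 UMIs in WT members (11.5 CPM) and 0 in cKO, whose floor of 3 UMIs is 1.00 CPM, whereas its partner Kcnj10 was at 70.4 CPM in WT and 92.7 in cKO. The calcium-activated potassium channel Kcnn2 was the higher one, at 52.1 CPM in WT and 119 in cKO.

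Of 33 measured astrocyte-enriched genes, 4 (12.1%, against 2.19% of all genes) were past 2-fold lower in cKO and 1 (3.03%, against 0.652%) was higher. The median was -0.04, near that of all genes and of either sign under other settings. Besides Gpr37l1 and Btbd17 the lower ones were Slco1c1, a thyroid hormone carrier, at 280.4 CPM in WT and 108 in cKO, and Lcat, a cholesterol-esterifying enzyme, at 38.7 CPM in WT and 13.3 in cKO. Lcat differed by -1.54 (-2.08 to -1.03) in members, against 1.48 (-0.17 to 3.53) in the Slc1a3+ cells with 1 or 2 UMIs and -0.36 (-0.94 to 0.21) in other cells, and Slco1c1 by -1.38 (-1.56 to -1.20), against -1.86 (-1.95 to -1.78). Mt1, a metallothionein, was the higher one, at 990.1 CPM in WT (959 to 1022) and 2092 in cKO (2041 to 2144). Its ratio of 1.08 (1.02 to 1.14) had the opposite sign to the -0.35 (-0.39 to -0.31) of all other cells as 1 sum, but not to the 1.11 (0.91 to 1.31) of the Slc1a3+ cells with 1 or 2 UMIs, the 1.07 (0.79 to 1.36) of the marker-negative cells or the 0.60 (0.35 to 0.84) of cells with at least 3 UMIs of Pdgfra. In cells with at least 3 UMIs of Foxj1, Ccdc153 and Tmem212, ependymal genes, it was -0.49 (-0.57 to -0.40). Mt2 was at 300.3 CPM in WT and 528 in cKO and Mt3 at 3764 CPM in WT and 2229 in cKO. Cst3, the protease inhibitor cystatin C, stood just under the threshold at 6934 CPM in WT (6851 to 7018) and 12657 in cKO (12530.2 to 12785). Aldoc, Sparcl1, Fgfr3, Htra1, Itih3 and Luzp2 had log2 ratios between -0.04 and 0.06 on the scale of CPM + 10. The genes of this list thus ran in both directions.

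Progenitor and lineage factors differed one by one. Of 18 radial glia genes, Gli3 was past 2-fold higher and Hes1 lower, with a median of -0.08 that changed sign under another setting. Of 16 Notch pathway genes Hes1 alone was past 2-fold, the median being 0.08, and of 18 pallial and subpallial factors Olig2 alone, the median being -0.09. Among 21 glial transcription factors, Hes1, a repressor and target of Notch, was alone past 2-fold, at 142 CPM in WT (129.9 to 154) and 64.4 in cKO (55.6 to 74.1), and Hes5 was at 676 CPM in WT (650.4 to 703) and 371 in cKO (349.8 to 394). Other parts of the Notch pathway pointed the other way: the receptor Notch1 was at 217 CPM in WT and 386 in cKO, a ratio of 0.83 (0.70 to 0.96), the target Nrarp was at 274 CPM in WT and 414 in cKO, and the target Hey2 at 11.3 CPM in WT and 28 in cKO. Notch1 was higher in cKO in the nearest cells too, with ratios of 0.42 (0.09 to 0.75) in the Slc1a3+ cells with 1 or 2 UMIs and 0.90 (0.46 to 1.36) in the marker-negative cells, and was -0.15 (-0.24 to -0.07) in all other cells as 1 sum. Hes1 and Hes5 were thus lower and Nrarp and Hey2 higher in the same cells. Olig2, the bHLH factor of oligodendrocyte lineage and ventral progenitors, was at 162 CPM in WT (149 to 175) and 45.7 in cKO (38.4 to 54), a ratio of -1.82 (-2.10 to -1.55), against -1.14 (-1.23 to -1.06) in other cells. Its neighbour Olig1 was at 380.4 CPM in WT and 152 in cKO. A UMI of Olig2 was seen in 29.8% (25.8 to 34.1) of WT and 9.90% (6.83 to 13.8) of cKO members at equal depth, and in 27.3% (15 to 42.8) and 31.3% (20.6 to 43.8) of the marker-negative cells, whose levels were 283 and 287 CPM. The Slc1a3+ cells with 1 or 2 UMIs of the gate genes shared the lower Olig2, at 248 CPM in WT and 93 in cKO, and the lower Olig1, at 394 CPM in WT and 188 in cKO. In the marker-negative cells Olig1 was lower as well, at 521 CPM in WT and 318 in cKO, and cells with at least 3 UMIs of Pdgfra had log2 ratios of -0.56 (-0.70 to -0.43) for Olig2 and -0.87 (-0.96 to -0.78) for Olig1. The forebrain factor Lhx2 was at 379 CPM in WT and 569 in cKO, with a ratio of 0.59 in members and 0.85 elsewhere. Sox2, Sox9, Pax6, Nfia, Nfib and Id1 had ratios between -0.18 and 0.08 on the scale of CPM + 10.

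Signalling lists held few genes past 2-fold. Of 15 hedgehog and Wnt genes, Gli3, a repressor and activator at the end of the hedgehog pathway, was past 2-fold higher, at 61.5 CPM in WT and 136 in cKO, the median was 0.32, and 10 of 15 were above 0. The median of all measured genes was -0.06, and that of this list was 0.02 in all other cells. Its summed level was 1035 CPM in WT and 1288 in cKO in members, a ratio of 1.24. That ratio was 1.43 in all other cells, 1.35 in the Slc1a3+ cells with 1 or 2 UMIs and 1.40 in the marker-negative cells. The higher sum was thus not particular to members. The hedgehog receptor Ptch1 was at 46.6 CPM in WT and 67.4 in cKO, and the transducer Smo at 71.5 CPM in WT and 100.4 in cKO. None of 22 genes of FGF, EGF and BMP signalling, 9 measured JAK-STAT and reactive genes, 16 secreted synapse and matrix genes, 9 engulfment genes or 15 immediate early genes was past 2-fold, and their medians ran from -0.25 to 0.02. Fos, induced by dissociation as well as by activity, was at 1311 CPM in WT and 1033 in cKO, and Stat3 at 61.3 CPM in WT and 60.7 in cKO. In the STING, NF-kB and interferon list, 9 of 22 genes had too few UMIs to be measured, interferon-induced Ifit1, Isg15 and Irf7 each at 1.31 CPM or less. Irf3 was the one of 13 past 2-fold, at 29.1 CPM in WT (23.9 to 35) and 9.01 in cKO (5.94 to 13.1), and its ratio of -1.69 (-2.35 to -1.07) lay beside -1.77 (-2.0 to -1.55) in other cells. Nfkb1 was at 26.7 CPM in WT and 50.04 in cKO, and Nfkbia, the gene of its inhibitor, at 65.7 CPM in WT and 122 in cKO.

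Genes of cholesterol synthesis were lower in cKO members in median, and the median of other cells was lower still. The 15 genes of cholesterol synthesis and uptake had a median of -0.35, against -0.83 in all other cells and -1.02 in neurons. The summed level of the list was 3314 CPM in WT and 2546 in cKO in members, and 2016 CPM in WT and 1823 in cKO in the Slc1a3+ cells with 1 or 2 UMIs of the gate genes. Cyp51 and Dhcr7 of the sterol pathway were past 2-fold lower, Cyp51 at 249 CPM in WT and 100.7 in cKO and Dhcr7 at 84 CPM in WT and 34.4 in cKO. Hmgcs1, an early enzyme of the pathway, was at 876 CPM in WT (847 to 907) and 644 in cKO (615 to 673) in members, a ratio of -0.44 (-0.53 to -0.36), and at 479 and 171 CPM in other cells, a ratio of -1.48 (-1.52 to -1.45). Insig1, which holds the sterol sensor in the endoplasmic reticulum, was past 2-fold higher in cKO members instead, at 119.9 CPM in WT and 250.2 in cKO. Acsl3, an acyl-CoA synthetase, was at 89.8 CPM in WT and 186 in cKO. Its ratio was 1.05 (0.86 to 1.25) in members and 0.74 (0.16 to 1.35) in the Slc1a3+ cells with 1 or 2 UMIs, with the opposite sign, -0.66 (-0.74 to -0.58), in all other cells as 1 sum. The ratio was -0.01 (-0.81 to 0.83) in the marker-negative cells and -0.83 (-1.34 to -0.35) in cells with at least 3 UMIs of Pdgfra. In cells with at least 3 UMIs of Foxj1, Ccdc153 and Tmem212 it was 0.71 (0.18 to 1.23). Apoe was at 4126 CPM in WT and 3427 in cKO, Clu at 675 CPM in WT and 893 in cKO and Fabp5 at 2763 CPM in WT and 1778 in cKO. Of 20 glucose, glycogen and lactate genes, glycogen synthase Gys1 was past 2-fold lower, at 24.1 CPM in WT and 5.67 in cKO, and the median was -0.02, of either sign under other settings. Of 19 genes of lipid carriage and fatty acids, Lcat alone was past 2-fold, and the median was -0.09, against -0.26 in other cells.

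Clock genes were higher in cKO members as a list. In this transcriptional loop Arntl and Clock activate the Per and Cry genes, whose products repress them, and Nr1d1 and the Ror genes act on Arntl. Of 18 measured genes, 5 (27.8%, against 0.652% of all genes) were past 2-fold higher, 17 were above 0 and 1 below, and the median was 0.60. The same genes had a median of 0.49 in all other cells and 0.44 in neurons, so the list was higher in cKO outside astrocytes as well. Its summed level was 788 CPM in WT and 1285 in cKO in members, 659.7 CPM in WT and 1295 in cKO in the Slc1a3+ cells with 1 or 2 UMIs and 447 CPM in WT and 903 in cKO in the marker-negative cells. Per1 was described above. Per2 was at 6.54 CPM in WT and 27 in cKO, Cry1 at 24.3 CPM in WT and 70.1 in cKO, Nr1d1 at 13.9 CPM in WT and 40.03 in cKO and Ciart at 7.59 CPM in WT and 25.4 in cKO. The activator Arntl was at 44.2 CPM in WT and 71.7 in cKO, and Clock at 64.4 CPM in WT and 103 in cKO. Dbp, a target of the loop, was nearly alike (39 CPM in WT and 39 in cKO), and Rorb was the lower one, at 223 CPM in WT and 157 in cKO. The hour at which each pup was taken is not given in the sources used here.

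Sequences before the starts of these genes are shown because Arntl and Clock bind the E-box CACGTG, which reads the same on both strands. In the RefSeq table of build GRCm38.p6, 17 of the 19 clock genes had a promoter, and 5 of them (29.4%) held CACGTG within the 250 bases before a start, against 6.86% of 27025 genes and 6.02% of 32851 promoter windows of that length. The 5 were Per1, Cry1, Ciart, Tef and Bhlhe41, and the sites nearest the start of the first 4 read as follows, on the gene's own strand with the E-box in capitals.
Per1, chr11:69098771-69098800, plus strand: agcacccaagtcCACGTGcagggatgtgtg
Cry1, chr10:85185097-85185126, minus strand: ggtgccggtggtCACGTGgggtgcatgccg
Ciart, chr3:95882255-95882284, minus strand: cgtgcagaaccgCACGTGtctgggaggggg
Tef, chr15:81802534-81802563, plus strand: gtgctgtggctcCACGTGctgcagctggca
The site lies 166 bases before the start in Per1, 60 in Cry1, 44 in Ciart and 127 in Tef. Of these genes, Per1, Cry1 and Ciart were past 2-fold higher in cKO members, Tef was at 70.9 CPM in WT and 128 in cKO and Bhlhe41 at 9.69 CPM in WT and 10.7 in cKO. Per2 had no entry in the table, and Nr1d1 had no match in its window. A match describes the letters only, and binding was not measured.

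Genes that glucocorticoids induce were also higher in cKO, in members and in the Slc1a3+ cells most like them. Of 19 measured genes, 4 (21.1%, against 0.652% of all genes) were past 2-fold higher and 1 lower, 16 were above 0, and the median was 0.63, against 0.02 in all other cells and -0.01 in neurons. The 4 were Per1, Cdkn1a, Mt1 and Klf9, a Kruppel-like factor at 98.4 CPM in WT (88.7 to 109) and 214 in cKO (198 to 231), a ratio of 1.12 (0.94 to 1.31) against 0.45 (0.35 to 0.55). The ratio of Klf9 was 1.60 (1.04 to 2.21) in the Slc1a3+ cells with 1 or 2 UMIs and 0.72 (-0.20 to 1.72) in the marker-negative cells. In cells with at least 3 UMIs of Pdgfra it was 1.32 (0.79 to 1.85). Neurons make up much of the other cells, and the cells nearest to members were like members: the summed level of the 20 listed genes was 1823 CPM in WT and 3579.6 in cKO in members, 1317 CPM in WT and 2551 in cKO in the Slc1a3+ cells with 1 or 2 UMIs of Aqp4, Aldh1l1 and Pla2g7, 944 CPM in WT and 1736 in cKO in the marker-negative cells and 512 CPM in WT and 869 in cKO in cells with at least 3 UMIs of Pdgfra. These are ratios of 1.96, 1.94, 1.84 and 1.70, so the higher level was not particular to members. In cells with at least 3 UMIs of Foxj1, Ccdc153 and Tmem212 the sum was lower in cKO, at 9904 CPM in WT and 7824 in cKO. In microglia it was 1560 CPM in WT and 1513 in cKO. Mt1 gave the larger part of the sum in members. A UMI of Klf9 was found in 30.2% (26.2 to 34.5) of WT and 52.7% (47 to 58.4) of cKO members at equal depth, and in 0% and 3.33% of microglia. Zbtb16, a zinc finger repressor, was at 3.14 CPM in WT and 16 in cKO, a ratio of 2.35 (1.42 to 3.40), and the hypoxia factor gene Hif3a at 2.36 CPM in WT and 13 in cKO, a ratio of 2.47 (1.40 to 3.70). Classical targets had few UMIs: Fkbp5, a receptor co-chaperone, had 17 and 26 UMIs and the kinase Sgk1 8 and 26, while Tsc22d3 was at 53.9 CPM in WT and 91.1 in cKO. Angptl4, which also answers to fatty acids, was past 2-fold lower at 66 CPM in WT (58.1 to 74.6) and 11.7 in cKO (8.13 to 16.2), and it was lower in other cells too, with a ratio of -2.0 (-2.25 to -1.77). Per1 stands in both this list and the clock list.

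**Figure D5:**
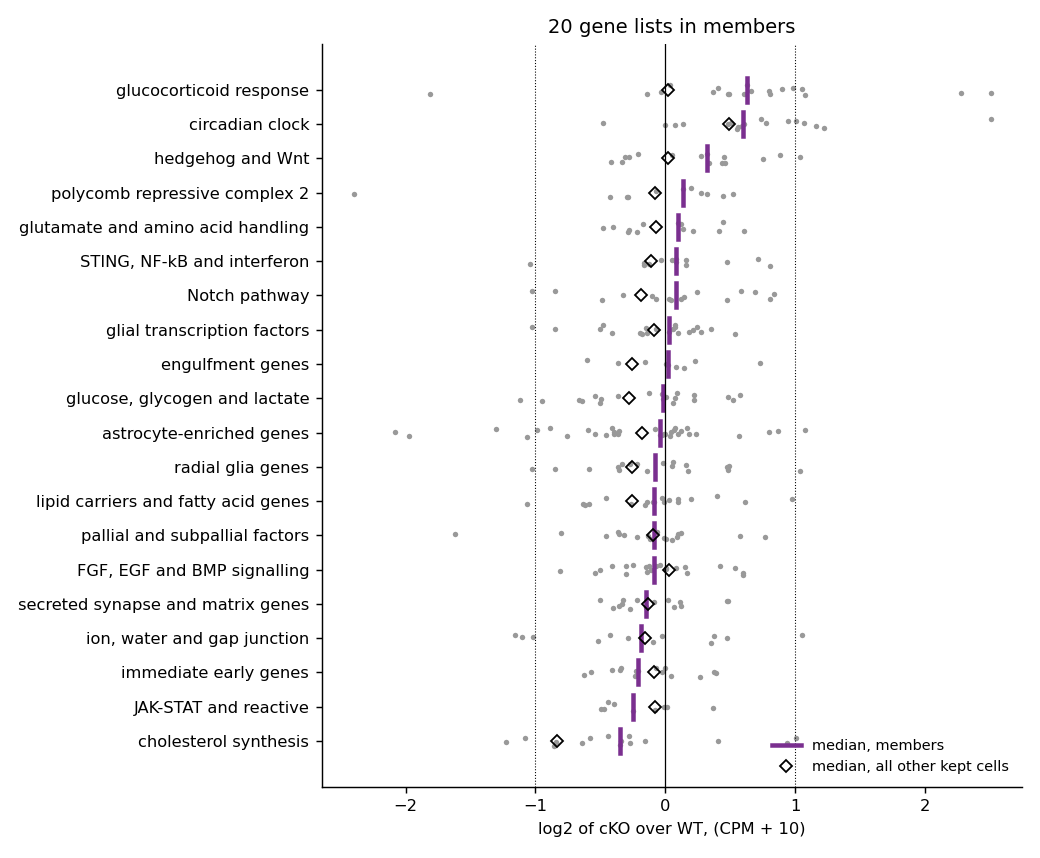
Log2 of cKO over WT on the scale of CPM + 10 (x axis) for each measured gene (grey points) of 20 gene lists in members, with the list's median in members (purple bars) and in all other filtered cells (open diamonds); dotted lines mark 2-fold. The glucocorticoid list has its median at 0.63 in members and 0.02 in all other cells, which are mostly of other types than the Slc1a3+ cells that shared this difference, the clock list at 0.60 and 0.49, and the cholesterol list at -0.35 and -0.83.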

How the data were processed

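RNA of single cells was measured in 1 WT and 1 cKO library of newborn mouse cortex. The deposited matrices hold UMI counts per gene and cell, made by the authors. The labels' processing notes name STAR, Seurat, Cell Ranger 2 and the build mm9, while the header of the matrices names Cell Ranger 3.0.1, and these were not reconciled. A deposited table of both libraries together, also of UMI counts, was used as an alternative only.

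Members and gene lists were chosen with earlier results of these data known. UMIs of 27998 genes were summed over the members of each library and divided by their total, giving CPM, with exact Poisson intervals at the 95% level. Ratios are log2 of cKO over WT, with exact conditional binomial intervals, and "on the scale of CPM + 10" means that 10 CPM were added to both levels first, which understates the ratio of low genes. A gene was measured with at least 20 UMIs over both libraries. Genes were named by a rule: the 10 highest and 10 lowest ratios of CPM + 10, taken from genes whose WT and cKO intervals do not overlap and that have 30 or more UMIs in a library, without mitochondrial, haemoglobin and sex-linked genes. Against Slc1a3+ cells without Aqp4, Aldh1l1 and Pla2g7, the rule took the 15 highest and 10 lowest by the library nearer 0. Other genes were named from the lists, after their values were seen. "All other cells" are all filtered cells that are not members. Thinning drew 4000 UMIs from each cell with a fixed seed. With 1 library per group no test was made, and intervals cover counting error only. The ratio was checked on simulated counts. Near-identical transcripts were sought with BLAST 2.17.0 in GENCODE M21 (at least 50% of the transcript). Scrublet, run through scanpy 1.11.5, marked 165 of 6766 WT and 0 of 6080 cKO cells by its automatic threshold, so it had not worked in cKO and doublets were kept. Python 3.11.15, scipy 1.17.1, R 4.3.3 and edgeR 4.0.16 (scaling factors alone) were used. Alternatives changed the filter, the gate, the scaling, the depth, the matrix and the doublets. Values of a few genes are not reported here.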

Additional observations from a re-analysis of the deposited data

Results flagged for a closer look

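Results that ran opposite ways in members and in all other filtered cells were marked for a closer look, and the difference was not tested, since each group had 1 library. The metallothionein gene Mt1 had a log2 ratio of cKO over WT of 1.08 (1.02 to 1.14) in members and -0.35 (-0.39 to -0.31) in all other cells as 1 sum. The cells nearest to members ran the same way as members, with ratios of 1.11 (0.91 to 1.31) in Slc1a3+ cells with 1 or 2 UMIs of Aqp4, Aldh1l1 and Pla2g7, 1.07 (0.79 to 1.36) in Slc1a3+ cells with none and 0.60 (0.35 to 0.84) in cells with at least 3 UMIs of Pdgfra, whereas cells with at least 3 UMIs of the ependymal genes Foxj1, Ccdc153 and Tmem212 were at -0.49 (-0.57 to -0.40). The granulocyte genes S100a8 and S100a9 were each at 10.7 CPM in cKO members and at 0 in WT members, while in all other cells they were lower in cKO, with ratios of -2.65 for S100a8 and -2.47 for S100a9. All UMIs of these genes in members came from 1 cKO cell.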

How the results depend on the processing

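No paired analysis was possible because each group had 1 library. The difference in share of kept cells, -2.37 points for members, was -7.43 with at least 1000 genes and at most 5% mitochondrial UMIs, -1.39 with no filter, and -3.55 when every cell was thinned to 4000 UMIs before the gate. The cause was not tested. The counts of genes at least 2-fold higher or lower in members than in marker-negative cells, 279 and 120, were 17 and 12 against cells with 1 or 2 UMIs of Aqp4, Aldh1l1 and Pla2g7, which stand nearer to members by construction. The counts past 2-fold between WT and cKO stayed between 67 and 107 higher and between 193 and 322 lower over 11 alternatives, and the 20 genes named by the rule kept their sign. Of 294 list genes, 56 changed sign under at least 1 alternative, 18 of 294 with TMM factors, all with a ratio of at most 0.33 in size as reported (0.08 with TMM factors), Aldoc and Fgfr3 among them. Of the 20 list medians, 6 near 0 changed sign: astrocyte-enriched genes, engulfment, glial transcription factors, glucose, glutamate and radial glia genes. The glucocorticoid median ran from 0.59 to 0.71, the clock median from 0.60 to 0.69 and the cholesterol median from -0.41 to -0.27. The Scrublet alternative with the WT threshold in both libraries, which left out 13 WT and 6 cKO members, was added after the data were seen, as was the share of Slc1a3+ cells. The planned one, with each library's own threshold, was not run because it marked no cKO cell. Genes under about 20 UMIs cannot be placed at this depth.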

Other observations

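Outside the lists and the naming rule, Mfsd2a, Oaf, Eva1a and Fam43a were past 2-fold higher in cKO members and lower in cKO in all other cells as 1 sum, and they were chosen after these values were seen. Mfsd2a, a lysolipid transporter that also marks brain endothelium, was at 41.6 CPM in WT and 102 in cKO members, a log2 ratio of 1.29 (1.01 to 1.58), and at 92.3 and 24.4 CPM in other cells, a ratio of -1.92 (-2.01 to -1.83). Oaf was at 39.8 and 117 CPM in members and at 5.06 and 4.12 in other cells. Eva1a was at 19.6 and 49.4 CPM in members and at 4.35 and 2.39 in other cells. Fam43a was at 3.14 and 16.3 CPM in members and at 16.1 and 12.1 in other cells. In Slc1a3+ cells with 1 or 2 UMIs of Aqp4, Aldh1l1 and Pla2g7 the log2 ratio was also above 0 for each, at 3.19 (1.53 to 5.54) for Mfsd2a, 1.19 (0.29 to 2.17) for Oaf, 0.57 (-0.59 to 1.83) for Eva1a and 2.74 (-0.11 to 8.19) for Fam43a, the last 2 with intervals that reach 0. In the marker-negative cells it was -0.26 (-1.26 to 0.77) for Mfsd2a, 0.02 (-1.59 to 1.76) for Oaf and 0.45 (-1.39 to 2.60) for Eva1a. Fam43a had 0 UMIs in WT and 2 in cKO there. Cells with at least 3 UMIs of Pdgfra had 0.07 (-0.14 to 0.28) for Mfsd2a and few UMIs of the others. The nearest cells thus did not all share these differences.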
